A study of Mus musculus with 12 samples.

Results

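The difference between the effect of a high fat diet in enteroendocrine cells and its effect in the other cells of the same villi was taken for each expressed gene. It is the log2 fold change of high fat over normal diet in the sorted hormone cells minus the same log2 fold change in the cells sorted without the marker, from 1 model with 4 group means. A positive difference means that the diet effect was higher in the hormone cells, and it arises as well from a lower level in the other cells as from a higher one in the hormone cells. All 17087 genes that passed the filter on low counts were taken, of 39086 in the table, and 85 of them (0.497%) were called at an adjusted p below 0.05.

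The samples were jejunal villus cells of male C57BL/6N mice, all heterozygous for a Neurog3 allele with an eYFP reporter (Neurog3eYFP/+). ND mice stayed on normal diet (Safe D04) and HFD mice were moved to a high fat diet (D12492) at 8 weeks of age for 4 weeks, so that all were 12 weeks old. Cells were sorted by eYFP into positive cells (EEC, enteroendocrine cells) and negative cells (non-EEC), which gave the groups ND EEC, HFD EEC, ND non-EEC and HFD non-EEC with 3 libraries each. There were 3 mice for each diet, but the labels do not link the libraries to single mice; the 12 libraries were treated as independent and each p-value measures the spread among them. The reporter reads the Neurog3 gene and 1 allele carries it in every group, controls included, and the eYFP-negative sort takes whatever other cells the villus preparation holds.

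Enteroendocrine cells are scattered hormone cells of the gut lining that arise from progenitors expressing Neurog3, sense nutrients and release peptides such as CCK, GIP and PYY. Most other villus cells are absorptive enterocytes, which take up fatty acids, rebuild them into triglyceride and export them as chylomicrons. Goblet cells, tuft cells and intraepithelial lymphocytes lie among them.

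Total counts ran from 9543183 to 29054281 per library, and no pair of libraries was identical (the highest correlation of log2 values was 0.9659). The sorted populations matched their labels by the sum of 12 EEC markers, which was 17858 to 112933 CPM (counts scaled to library size) in EEC libraries and 187 to 8049 in non-EEC libraries. The value of 8049 belonged to replicate 1 of ND non-EEC, which stood apart from replicates 2 and 3 (550 and 187), and it also held more goblet cell markers (37727 against 3313 and 1026) and more enterocyte markers (26189 against 4430 and 4961). T cell markers (23 genes) summed to 7112 to 17186 CPM in ND non-EEC, to 84 to 650 in HFD non-EEC, to 357 to 2482 in EEC on ND and to 31 to 127 on HFD. Enterocyte markers (20 genes) summed to 47359, 103442 and 92912 CPM in HFD non-EEC, above all other libraries, and to 12942 to 20417 in EEC on ND and 12875 to 27547 on HFD. In sorted bulk samples like these, fewer cells of a type and less RNA per cell cannot be told apart. Diet and this change in cell markers move together in non-EEC and cannot be told apart there. In EEC the T cell marker sums did not overlap between the diets either, and diet and T cell content cannot be told apart there.

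**Figure D1:**
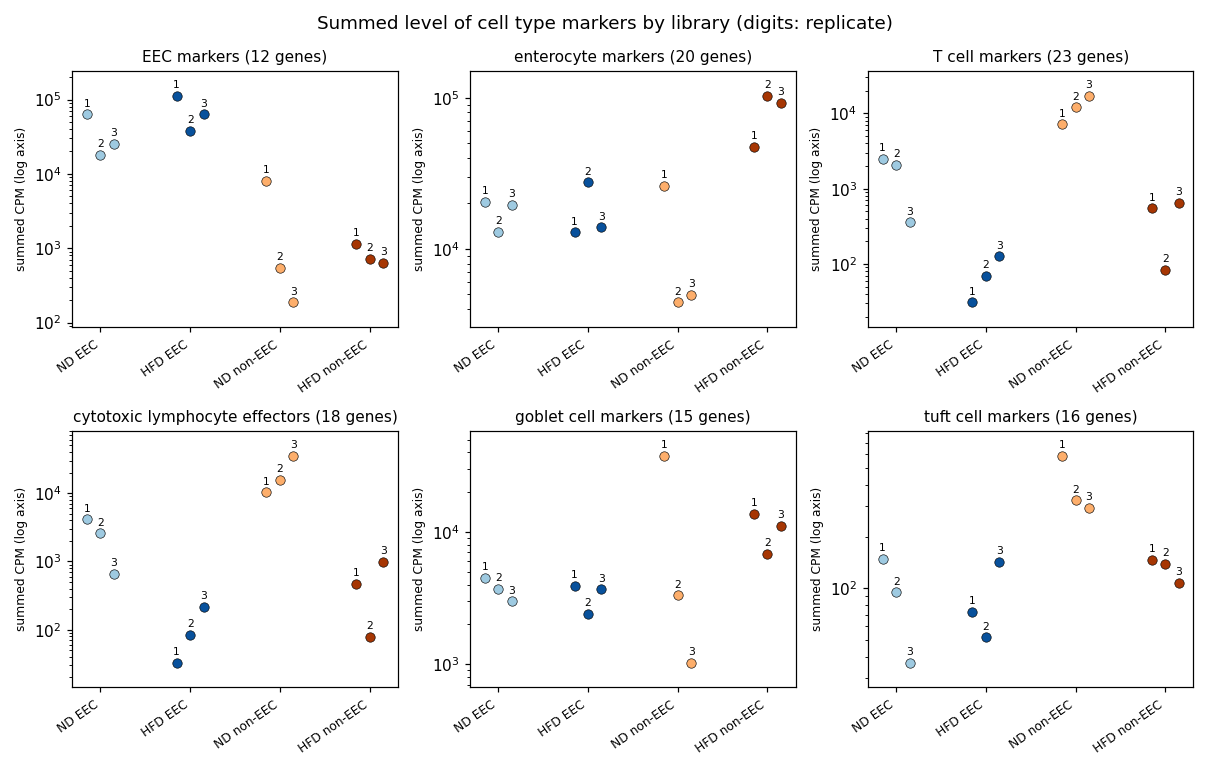
Summed level of 6 lists of cell type markers in each of the 12 libraries, in CPM on a log axis, by group, with the replicate number beside each point. Enterocyte markers were highest in the 3 HFD non-EEC libraries, and T cell markers were highest in the 3 ND non-EEC libraries and lower under HFD in both populations.

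The genes called by edgeR over all 12 libraries were mostly genes that fell in non-EEC under the high fat diet. Their level in EEC mostly stayed near the ND level or was higher. The split by sign differed with other settings, as given below. Of the 85 called genes 77 had a positive difference (0.451% of the genes tested) and 8 a negative one (0.0468%). In all 77 the 3 HFD non-EEC libraries lay below the 3 ND non-EEC libraries, against 20.2% of all genes tested, and 74 of them were also called lower in non-EEC (9.15% of all genes). In 22 of the 77 the 3 HFD EEC libraries lay above the 3 ND EEC libraries (8.37% of all genes) and in 1 below them (6.59%). In all 8 genes with a negative difference HFD non-EEC lay above ND non-EEC without overlap (15.1% of all genes), and all 8 were called higher there (5.76%). These shares use the same libraries as the difference itself and describe the called genes.

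Sorted by their fitted diet effects with a bound of 1 on the log2 scale, 52 of the 85 genes (61.2%) were lower in non-EEC with an EEC value within the bound. In 26 genes the effects had opposite signs past the bound, 24 of them higher in EEC and lower in non-EEC. Another 6 genes were higher in non-EEC with an EEC value within the bound, and 1, 4930503L19Rik, was lower in both. No called gene was higher or lower in EEC with a non-EEC value within the bound. With edgeR's quasi-likelihood test and Benjamini-Hochberg adjustment, 0 genes (0%) were called for diet in EEC alone, where 1613 (9.44%) had an unadjusted p below 0.05, DESeq2 called 465 and limma-voom 8. In non-EEC 2549 genes were called (14.9%). A gene called in one population and not in the other is not shown to differ by that alone, and the 85 genes rest on the test of the difference.

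**Figure D2:**
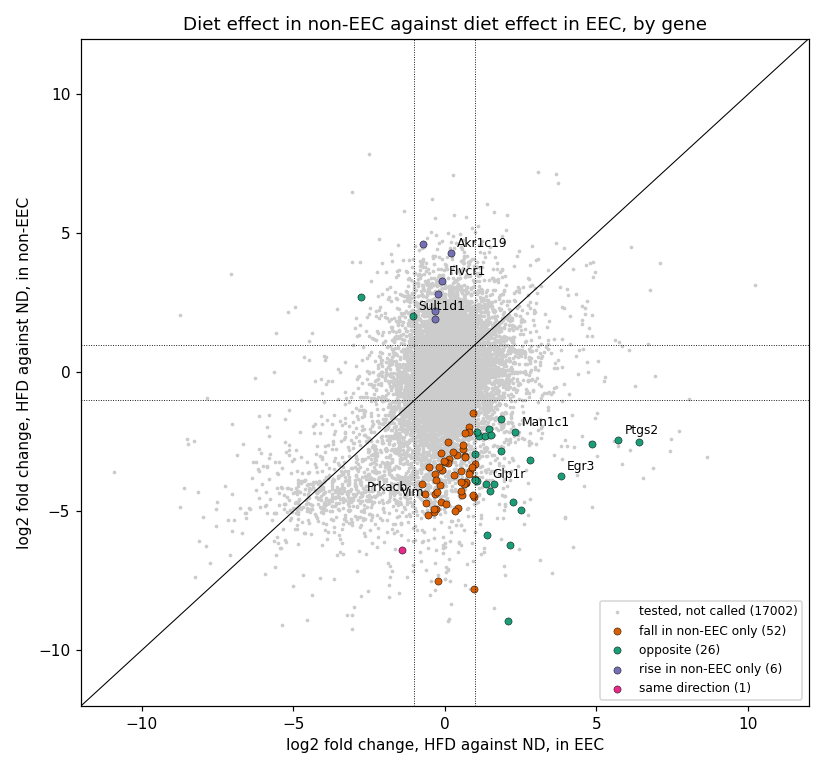
Log2 fold change of HFD over ND in non-EEC (vertical) against that in EEC (horizontal) for 17087 genes; grey points were not called in the difference and coloured points are the 85 called genes by class. The diagonal marks equal effects and dotted lines the bound of 1; most coloured points lie low and near the centre, at a lower level in non-EEC and little fitted change in EEC. The fitted values of 6 called genes with 3 or fewer counts in 1 group depend on the prior count.

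The calls were few and close to the threshold, while 2815 genes (16.5%) had an unadjusted p below 0.05. Adjusted p values of the last genes inside it were 0.0478 for Flvcr1, 0.0481 for Ntng2 and 0.049 for Pip4k2a, and those of the first outside it were 0.0507 for Hk1, 0.0508 for Ptger4 and 0.0514 for Acsl3. Without replicate 1 of ND non-EEC, the library that stood apart, 464 genes had a positive and 807 a negative difference, and all 85 were called again. Negative calls outnumbered positive ones in that run and with limma-voom, where 963 genes had a positive and 1220 a negative difference. No gene was called in 5 of the other 11 runs with 1 library left out. These were the runs that lacked replicate 2 of ND EEC, replicates 1 or 3 of HFD EEC, replicate 2 of ND non-EEC or the third library of HFD non-EEC, and 3085, 2163, 2250, 2291 and 2585 genes had an unadjusted p below 0.05 in them by edgeR. Among EEC libraries, there were 37 calls without ND replicate 1, 1 without ND replicate 3 and 99 without HFD replicate 2. Among non-EEC libraries, there were 9 calls without ND replicate 3, 42 without HFD replicate 1 and 14 without HFD replicate 2. Each of the 85 genes kept the sign of its difference in all 12 of these runs, and 7 were called in at least 6 of them.

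**Figure D3:**
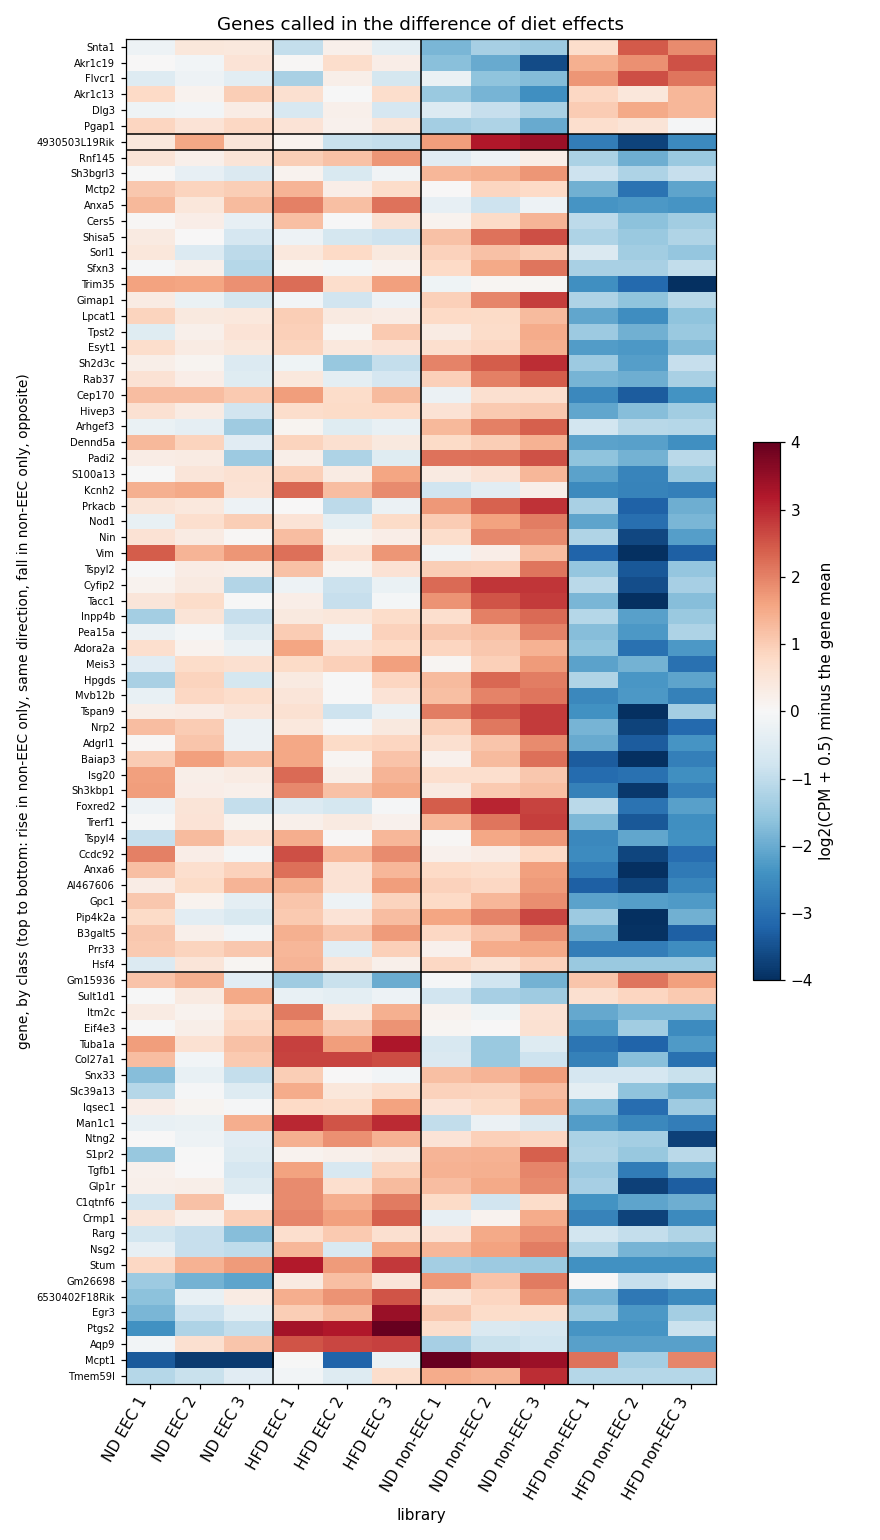
Level of the 85 called genes in the 12 libraries, as log2(CPM + 0.5) minus the gene's mean (colour, from -4 to 4), with genes in 4 classes separated by lines. The 3 HFD non-EEC columns lie below the 3 ND non-EEC columns in 77 genes; the top 6 rows and, at the head of the lowest block, Gm15936 and Sult1d1 run the other way.

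Among the 52 genes that fell in non-EEC with an EEC value within the bound, Mvb12b, AI467606, Esyt1 and Trerf1 had the smallest p-values (adjusted p = 0.02 for each). AI467606 has a provisional symbol and is named here after its values were seen. Esyt1 (chromosome 10, 128509965 to 128525871), an extended synaptotagmin that joins the endoplasmic reticulum to the plasma membrane, had 144, 112 and 122 CPM in EEC on ND and 166, 118 and 129 on HFD. In non-EEC it had 141, 159 and 241 CPM under ND and 18.3, 17.5 and 26.4 under HFD. The EEC groups overlapped, and the 3 HFD non-EEC libraries were far below the other 9. Its difference was 3.25 ± 0.44 (log2, SE), with 0.12 ± 0.30 in EEC and -3.12 ± 0.33 in non-EEC (adjusted p of the difference = 0.02). Mvb12b, a subunit of the ESCRT-I complex that sorts receptors into multivesicular bodies, had 1.87, 2.41 and 1.71 CPM in HFD non-EEC against 32.5, 56 and 62.2 in ND non-EEC. In EEC it had 11.2, 24.8 and 22.5 CPM under ND and 19.5, 13.6 and 20.4 under HFD. The difference was 4.53 ± 0.58 (adjusted p = 0.02), and the EEC groups again overlapped.

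The transcriptional regulator Trerf1 (chromosome 17, 47140875 to 47361958) had the smallest diet effect in EEC of the 33 named genes with a called difference. Trerf1 is annotated here as a processed transcript. It had 25.6, 37.6 and 27.6 CPM in EEC on ND and 30, 33.5 and 28.9 on HFD. In non-EEC it had 66, 116 and 178 CPM under ND and 7.05, 2.03 and 4.33 under HFD. The EEC value was 0.02 ± 0.43 and the difference 4.75 ± 0.64 (log2, SE; adjusted p = 0.02). Sh3kbp1, an adaptor in receptor endocytosis, fell in non-EEC from 119, 192 and 216 CPM to 13.6, 5.83 and 13.4, with a difference of 4.68 ± 0.68. Pea15a, a small protein that binds ERK kinases, fell from 28.4, 31.1 and 53.9 CPM to 3.74, 2.28 and 5.35, with a difference of 4.30 ± 0.64. Adgrl1, the adhesion receptor latrophilin 1, fell from 37.4, 51.8 and 89.9 CPM to 5.48, 1.9 and 4.21, with a difference of 4.62 ± 0.71 (adjusted p = 0.0247 for all 3). Each of these 3 genes had overlapping ND and HFD libraries in EEC.

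Calcium-dependent phospholipid binders and vimentin were among the called genes as well. From a list of 21 keratin, vimentin, annexin and S100 genes 19 were tested, and 3 had a called positive difference (0.451% of all genes), none a negative one (0.0468%). Anxa6 (chromosome 11, 54979108 to 55033445) had 124, 86.3 and 102 CPM in EEC on ND, 248, 81.2 and 135 in EEC on HFD, 93.5, 89 and 170 in non-EEC on ND and 7.35, 2.03 and 7.17 on HFD. Its difference was 4.97 ± 0.73 (log2, SE; adjusted p = 0.0247). Anxa5 had 34.6, 24.4 and 38.1 CPM in non-EEC on ND and 8.07, 8.5 and 8.08 on HFD. In EEC it had 107, 60.4 and 107 CPM under ND and 180, 101 and 198 under HFD, which overlap, and the difference was 2.78 ± 0.49 (adjusted p = 0.0316). Vim, the intermediate filament of mesenchymal cells and lymphocytes, fell in non-EEC from 79.5, 107 and 209 CPM to 9.04, 2.28 and 8.65. Its level in EEC was 472, 229 and 299 CPM under ND and 404, 133 and 302 under HFD, overlapping between the diets, and the difference was 4.04 ± 0.80 (adjusted p = 0.0456). The median difference of the 19 genes was 0.81, against 0.11 over all genes, and -0.43 without ND non-EEC replicate 1. Without that library 3 genes of the list were called positive and 3 negative, and with limma-voom 4 and 4. Over all genes these runs called 464 positive and 807 negative, and 963 and 1220.

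Glp1r, the receptor for the incretin GLP-1, was the 1 called gene of 21 tested nutrient and hormone receptors (0.451% of all genes were called positive). It had 46, 46.6 and 27.7 CPM in EEC on ND and 149, 63.5 and 96.1 on HFD. In non-EEC it had 93.6, 114 and 149 CPM under ND and 15.6, 2.54 and 3.64 under HFD (chromosome 17, 30901817 to 30940791). HFD libraries lay above ND libraries in EEC and below them in non-EEC, with no overlap in either. The effect was 1.36 ± 0.56 in EEC (adjusted p = 0.469) and -4.01 ± 0.63 in non-EEC (adjusted p = 0.00307), and the difference was 5.37 ± 0.84 (log2, SE; adjusted p = 0.0247). Hpgds, a prostaglandin D synthase of tuft cells and immune cells, was the 1 called gene of 14 tested tuft cell markers (0.451% of all genes). It fell in non-EEC from 22.3, 46.1 and 38.5 CPM to 3.62, 1.4 and 1.71, had 3.38, 17 and 5.32 CPM in EEC on ND and 11.7, 8.87 and 16.8 on HFD, and differed by 4.51 ± 0.87 (adjusted p = 0.0424). The tuft cell markers together summed to 294 to 589 CPM in non-EEC on ND and 108 to 146 on HFD, and their part in the Hpgds result was not tested.

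Further named genes fell in non-EEC under HFD. Tgfb1, a cytokine precursor, belonged by its fitted EEC value of 1.08 to the class with opposite signs, and had 20.2, 20.7 and 30.2 CPM in non-EEC on ND against 2.35, 0.634 and 1.59 on HFD. Its EEC libraries overlapped between 4.38 and 23.5 CPM, and the difference was 4.99 ± 0.87 (adjusted p = 0.0316). Pip4k2a, a phosphoinositide kinase, fell in non-EEC from 111, 146 and 239 CPM to 13.1, 0.381 and 9.45, and its difference was 5.35 ± 1.08 (log2, SE; adjusted p = 0.049). Ccdc92 and Tspyl4 differed by 4.82 ± 0.84 (adjusted p = 0.0316) and 4.80 ± 0.95 (adjusted p = 0.0456), from non-EEC means under ND of 19 ± 4.61 and 16.6 ± 8.66 CPM (SD, n = 3) and under HFD of 1.29 ± 0.678 and 0.867 ± 0.247. Prkacb, a catalytic subunit of cAMP-dependent kinase, was chosen after its values were seen to show a gene whose ND non-EEC libraries were the group that stood apart. It had 354, 545 and 793 CPM there, 43, 10.8 and 26.9 in HFD non-EEC, 153, 143 and 92.9 in EEC on ND and 108, 50.5 and 90.6 on HFD (difference 3.74 ± 0.70, adjusted p = 0.0413).

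The group that stood apart from the other 3 was read from the means as the group whose removal left the smallest range. HFD non-EEC stood below the others in 52 of the 85 genes, and ND non-EEC stood above them in 18. HFD EEC stood above the others in 6 (Man1c1, Ptgs2, Aqp9, Egr3, Stum and Col27a1), and HFD non-EEC in 4. ND non-EEC stood below the others in 4 and ND EEC in 1. This sort was made with the values in view and carries no test.

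The promoters of 3 called genes are shown because they hold a motif of those searched, taken in order of the smallest p among named genes. They are windows of 250 bases before a RefSeq start on GRCm38.p6, each printed along its gene's strand with the match in capitals. B3galt5 (chr16:96235551-96235800, plus strand, 1 of its 3 windows) holds the antioxidant response element core 71 bases before the start, Ptgs2 (chr1:150099781-150100030, plus strand) a RUNX site 198 bases before it, and Aqp9 (chr9:71162634-71162883, minus strand, 1 of its 2 windows) an AP-1 site 24 bases before it.
B3galt5: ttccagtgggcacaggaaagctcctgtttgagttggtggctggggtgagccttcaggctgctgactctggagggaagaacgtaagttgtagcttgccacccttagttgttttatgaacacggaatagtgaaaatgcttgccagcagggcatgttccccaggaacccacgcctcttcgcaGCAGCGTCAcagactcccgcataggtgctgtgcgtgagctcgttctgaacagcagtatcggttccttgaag
Ptgs2: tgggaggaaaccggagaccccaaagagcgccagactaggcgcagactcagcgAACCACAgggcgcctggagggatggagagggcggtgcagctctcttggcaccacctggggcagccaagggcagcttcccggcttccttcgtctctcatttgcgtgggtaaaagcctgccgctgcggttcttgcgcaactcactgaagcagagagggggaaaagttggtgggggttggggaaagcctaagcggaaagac
Aqp9: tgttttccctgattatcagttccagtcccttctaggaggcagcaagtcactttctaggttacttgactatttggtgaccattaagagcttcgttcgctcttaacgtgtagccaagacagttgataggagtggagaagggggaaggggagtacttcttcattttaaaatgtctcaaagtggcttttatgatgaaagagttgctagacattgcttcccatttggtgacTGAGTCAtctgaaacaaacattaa
A promoter was matched for 73 of the 85 called genes and for 11912 tested genes, and each motif was searched on both strands. The core TGACNNNGC was in 15.1% of the called and 13.9% of the tested genes, the RUNX site TGTGGTT in 8.2% and 4.1%, and the AP-1 site TGACTCA in 2.7% and 4.3%. The cAMP response element TGACGTCA was in 4.1% and 2.9%, the ETS site CCGGAAGT in 2.7% and 6.1%, and the direct repeat 1 motif of nuclear receptors in 0% and 0.1%. The AP-1 site and the antioxidant core begin with the same letters, so that 1 stretch can match both. A match describes the window and is no measured binding.

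Genes with opposite diet effects in the 2 populations included Ptgs2, cyclooxygenase 2, the inducible enzyme of prostaglandin synthesis. Ptgs2 had 0.094, 0.866 and 1.15 CPM in EEC on ND and 31.6, 29 and 58.5 on HFD. It had 4.67, 1.63 and 1.49 CPM in non-EEC on ND and 0.12, 0.127 and 1.25 on HFD. The HFD EEC libraries were above all other 9 with no overlap, and the HFD non-EEC libraries lay below those of ND non-EEC. The effect was 5.73 ± 0.95 in EEC (adjusted p = 0.0683) and -2.43 ± 0.91 in non-EEC (adjusted p = 0.089), neither called, and the difference was 8.16 ± 1.29 (log2, SE; adjusted p = 0.0253). Egr3, an immediate early transcription factor, had 0.188, 0.866 and 1.34 CPM in EEC on ND and 4.36, 5.29 and 25.9 on HFD, and 4.59, 3.54 and 3.44 in non-EEC on ND against 0.361, 0 and 0.455 on HFD. Its difference was 7.55 ± 1.39 (adjusted p = 0.0402), and it was the 1 called gene of 24 immediate early genes (0.451% of all genes were called positive). The median effect of the 24 genes was 1.43 in EEC and 0.28 in non-EEC. Their median difference was 1.02 (0.11 over all genes), and 21 of 24 had a difference above 0. Of the 24, 8 had a positive difference at an unadjusted p below 0.05 (9.08% of all genes). With limma-voom their median difference was 0.27, and 4 were called positive and 1 negative, against 963 and 1220 of all genes.

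Man1c1, a Golgi mannosidase of glycan trimming, was another gene of this class (chromosome 4, 134561690 to 134704290). It had 12.5, 12.8 and 42.9 CPM in EEC on ND and 128, 89.6 and 125 on HFD. In non-EEC it had 7.55, 13.2 and 10.1 CPM under ND and 2.89, 2.16 and 1.82 under HFD. Diets did not overlap in either population, and the HFD EEC libraries were the highest of all. The effect was 2.32 ± 0.47 in EEC (adjusted p = 0.0727) and -2.15 ± 0.49 in non-EEC (adjusted p = 0.0135), and the difference was 4.47 ± 0.68 (log2, SE; adjusted p = 0.0247). Crmp1, a cytoskeletal phosphoprotein of neurons, had 10.9, 8.92 and 15.4 CPM in EEC on ND, 31.4, 24.8 and 42.6 in EEC on HFD, 6.07, 8.49 and 22.3 in non-EEC on ND and 0.783, 0.127 and 0.911 on HFD. Its difference was 5.76 ± 0.87 (adjusted p = 0.0247), with no overlap between diets in either population.

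Other genes near or past the bound in both populations followed the same order of means, with HFD EEC above ND EEC and HFD non-EEC below ND non-EEC. Iqsec1, an exchange factor of ARF6, had 59.7, 53.6 and 47.5 CPM in EEC on ND, 85.6, 83.5 and 154 in EEC on HFD, 73.4, 85.1 and 135 in non-EEC on ND and 14.3, 5.58 and 18 on HFD (difference 3.96 ± 0.61, adjusted p = 0.0247). Eif4e3, a cap-binding protein of translation, had 42.1, 50 and 74.9 CPM in EEC on ND, 126, 90.1 and 148 in EEC on HFD, 44.9, 42.6 and 64.4 in non-EEC on ND and 8.31, 16 and 6.95 on HFD (difference 3.41 ± 0.54, adjusted p = 0.0253). Diets did not overlap for Iqsec1 and Eif4e3 in either population. B3galt5, a galactosyltransferase of glycolipid and glycoprotein chains, had its EEC value just within the bound (0.97 ± 0.53) and fell in non-EEC from 26.9, 33.7 and 55.6 CPM to 3.31, 0.507 and 1.14 (difference 5.44 ± 0.81, adjusted p = 0.0247). C1qtnf6, a secreted protein of the C1q and TNF related family, fell in non-EEC from 5.14, 1.42 and 4.93 CPM to 0.12, 0.254 and 0.342 and had 1.41, 6.84 and 2.64 in EEC on ND and 11.8, 8.51 and 13.4 on HFD (difference 5.66 ± 1.07, adjusted p = 0.042). Itm2c, an integral membrane protein, had a non-EEC mean of 73.3 ± 20.1 CPM under ND and 16.8 ± 1.7 under HFD, EEC means of 84 ± 17.7 and 174 ± 91 (SD, n = 3), and a difference of 3.18 ± 0.55 (adjusted p = 0.0316).

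In 6 called genes 1 group held 3 or fewer counts, and their fitted folds are no bound. Aqp9, a channel for glycerol and water, had 1.6, 3.03 and 4.38 CPM in EEC on ND and 12.4, 13.8 and 14.3 on HFD, and no count in HFD non-EEC against 29 counts over the ND non-EEC libraries. With a floor of 3 counts over the group, Aqp9 was at least 7.24-fold lower in HFD than in ND non-EEC (adjusted p of the difference = 0.0275). Stum, with 4.32, 6.67 and 8.27 CPM in EEC on ND and 23.9, 8.24 and 18.8 on HFD, which overlap, had 0 counts in HFD non-EEC against 22 in ND non-EEC, at least 5.49-fold lower (adjusted p = 0.042). Hsf4 and Tmem59l also had 0 counts in HFD non-EEC, at least 21.7-fold and 51.4-fold lower, and Prr33 had 1 count against 334 (ratio 250, 95% interval 44.6 to 9900). Mcpt1, a protease of mucosal mast cells, had 187, 85.7 and 76 CPM in non-EEC on ND and 31.6, 2.28 and 27.1 on HFD. In EEC it had 2 counts under ND and 177 under HFD (0.188, 0 and 0 CPM against 6.48, 0.269 and 5.48), a ratio of 120 with an interval of 32.7 to 999 (adjusted p of the difference = 0.0473). These bounds and intervals cover counting error only.

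**Figure D4:**
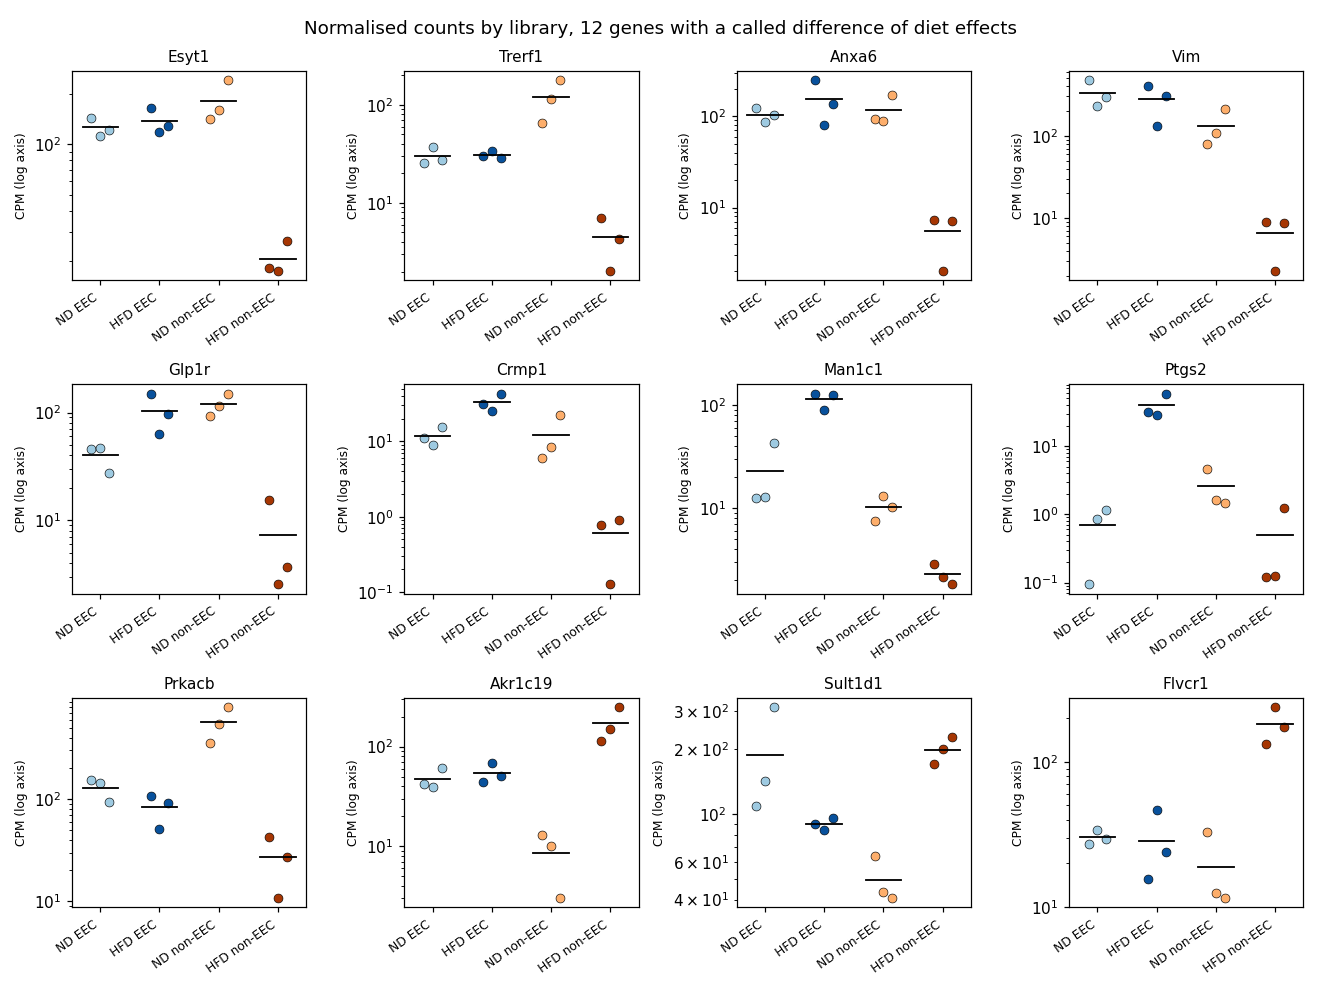
CPM on a log axis in each library for 12 called genes, with 3 points and their mean (line) in each of the 4 groups. HFD non-EEC has the lowest mean in 9 panels, and HFD EEC has the highest mean for Anxa6, Crmp1, Man1c1 and Ptgs2. Akr1c19, Sult1d1 and Flvcr1 are higher in HFD than in ND non-EEC.

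The 8 genes with a negative difference rose in non-EEC under the high fat diet. Akr1c19, an aldo-keto reductase, had 12.9, 9.98 and 3.04 CPM in non-EEC on ND and 114, 151 and 248 on HFD. In EEC it had 42.3, 39.1 and 61.4 CPM under ND and 43.8, 68.7 and 51.2 under HFD (chromosome 13, 4228700 to 4252843). The EEC libraries overlapped, and the non-EEC libraries lay on either side of them. Its difference was -4.11 ± 0.68 (log2, SE), with 0.19 ± 0.46 in EEC and 4.31 ± 0.53 in non-EEC (adjusted p of the difference = 0.0275). Its neighbour and close relative Akr1c13 (chromosome 13, 4191150 to 4205596) had 32.5, 24.8 and 16.3 CPM in non-EEC on ND, 164, 125 and 233 in non-EEC on HFD, 160, 101 and 184 in EEC on ND and 144, 90.8 and 149 on HFD, and differed by -3.04 ± 0.53 (adjusted p = 0.0316). Reads of such near copies may have been split between them.

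Sult1d1, a sulfotransferase, was the 1 called gene of 32 tested xenobiotic metabolism genes (0.0468% of all genes were called negative). It had 63.9, 43.2 and 40.7 CPM in non-EEC on ND and 170, 199 and 227 on HFD. In EEC it went the other way, with 109, 142 and 313 CPM under ND and 89.8, 84.2 and 95.9 under HFD, without overlap. The effect was -1.06 ± 0.38 in EEC (adjusted p = 0.358) and 2.01 ± 0.39 in non-EEC (adjusted p = 0.00594), and the difference was -3.08 ± 0.54 (log2, SE; adjusted p = 0.0316). Flvcr1, a membrane transporter known for heme export, had 32.6, 12.4 and 11.5 CPM in non-EEC on ND, 133, 238 and 175 in non-EEC on HFD and overlapping EEC libraries between 15.5 and 46.2 (difference -3.35 ± 0.67, adjusted p = 0.0478). Dlg3, a scaffold protein of cell junctions and synapses, rose in non-EEC from 32.8, 25.1 and 19.6 CPM to 99.1, 141 and 121 (difference -2.54 ± 0.47, adjusted p = 0.0417). Pgap1, which trims GPI anchors, rose from 38.8, 42 and 24.3 CPM to 160, 144 and 96.9 (difference -2.27 ± 0.43, adjusted p = 0.0424). In EEC Dlg3 overlapped between the diets at 30.5 to 59.9 CPM, and Pgap1 lay at 146 to 182 CPM under ND and 114 to 146 under HFD. The enterocyte marker sum moved in the same direction as these 8 genes, 4430 to 26189 CPM in non-EEC on ND and 47359 to 103442 on HFD. With an enterocyte marker score in the model 0 genes were called in the difference (837 at an unadjusted p below 0.05). The score comes from the same libraries and does not overlap between the diets in non-EEC. This fit therefore cannot separate enterocyte content from diet, and the part of enterocyte content was not tested.

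The 8 genes rose in non-EEC, and the absorptive lists below had median diet effects above 0 there and median differences below 0. At most 1 gene of each of these lists passed the test over all 12 libraries. Of 20 enterocyte markers 0 were called, and 15 had a negative difference at an unadjusted p below 0.05, against 7.4% of all genes. The median difference of these markers was -2.50, from -0.07 in EEC and 2.73 in non-EEC, where 13 were called higher (5.76% of all genes). DESeq2 called 7 and limma-voom 20 of the 20 as negative, against 465 and 1220 of all 17087 genes. Fabp2, the intestinal fatty acid binding protein, had 2086, 853 and 1761 CPM in non-EEC on ND and 10120, 19110 and 23580 on HFD. In EEC it had 2785, 1621 and 3221 CPM under ND and 1066, 4129 and 2150 under HFD, overlapping, and the difference was -3.54 ± 0.86 (adjusted p = 0.0841).

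The same held for lists of lipid handling and digestion. Of 26 lipid absorption and chylomicron genes 26 had a difference below 0, 18 at an unadjusted p below 0.05 and 0 called, with a median of -2.50. Of 30 brush border genes 29 were below 0 (20 at an unadjusted p below 0.05, 0 called, median -2.50), and of 27 PPAR target genes 25 were below 0 (17 at an unadjusted p below 0.05, 0 called, median -1.86). Of 30 fatty acid oxidation genes all were below 0 (16 at an unadjusted p below 0.05, 0 called, median -1.29), and 22 were called higher in non-EEC (5.76% of all genes). DESeq2 called 9, 9, 10 and 8 genes of these 4 lists and limma-voom 24, 28, 20 and 17, all negative. Over all genes they called 465 and 1220 negative, and by edgeR 7.4% had a negative difference at an unadjusted p below 0.05. The fatty acid transporter Cd36 had 14.2, 5.8 and 3.04 CPM in non-EEC on ND and 74.3, 261 and 183 on HFD against overlapping EEC libraries between 7.24 and 42.6 (difference -3.97 ± 0.99, adjusted p = 0.0893). The thioesterase Acot1, a PPAR alpha target, was higher under HFD in both populations without overlap, at 13.2, 4.5 and 5.72 against 23.2, 22.1 and 19 CPM in EEC and 3.81, 2.62 and 1.66 against 71.8, 29.7 and 59.9 in non-EEC (difference -2.86 ± 0.68, adjusted p = 0.0826).

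More genes of these lists were called without replicate 1 of ND non-EEC. In that run 20 of 20 enterocyte markers, 22 of 26 lipid absorption genes and 25 of 30 brush border genes were called negative. So were 20 of 32 xenobiotic metabolism genes, 17 of 27 PPAR targets and 12 of 30 fatty acid oxidation genes, against 807 of all 17893 genes tested. The adjusted p was then 0.022 for Fabp2 (difference -3.77), 0.0179 for Cd36 (-4.73) and 0.0245 for Acot1 (-3.16). This library held 26189 CPM of enterocyte markers, and the other ND non-EEC libraries held 4430 and 4961. It was set apart partly by these same markers, so the counts without it are no separate support. They show that the calls in these lists changed with this library. These calls changed with the method too, as the limma-voom counts given above used all 12 libraries.

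**Figure D5:**
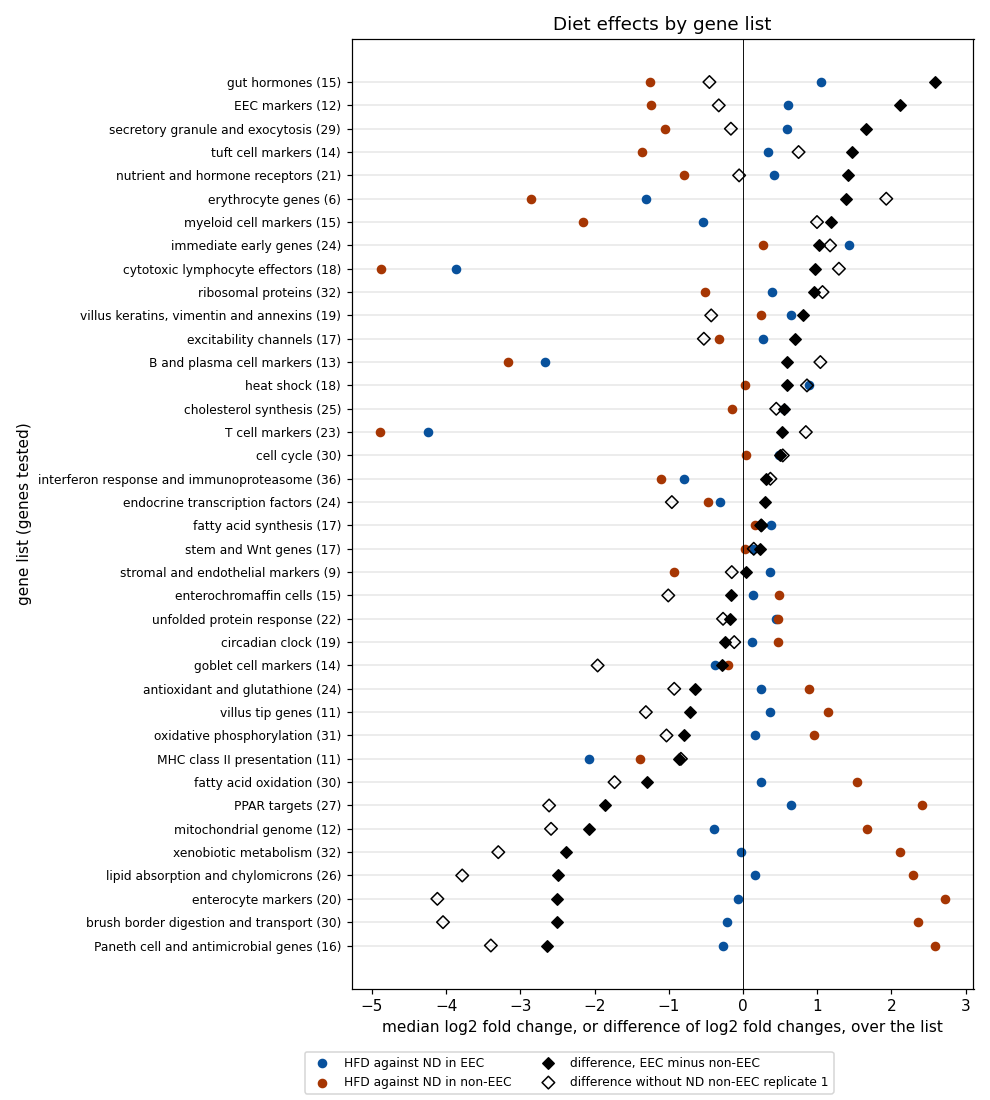
Median log2 diet effect in EEC and in non-EEC (circles) and median difference (filled diamonds) over the tested genes of 38 lists, with the difference without ND non-EEC replicate 1 as open diamonds. Absorptive lists at the bottom lie near 0 in EEC and above 0 in non-EEC, and hormone lists at the top have an open diamond on the other side of 0 from the filled one.

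Gut hormone genes showed no called difference between the diet effects. Of 15 tested hormone genes 0 were called, and 5 had a positive difference at an unadjusted p below 0.05 (9.08% of all genes). DESeq2 called 1 positive and limma-voom 1 in each direction. Of all genes DESeq2 called 596 positive, and limma-voom 963 positive and 1220 negative. The median effect of the hormone genes was 1.05 in EEC and -1.26 in non-EEC (-1.07 with Gal, which had 3 or fewer counts in a group, at its floor), and their median difference was 2.59. Without ND non-EEC replicate 1 that median was -0.45. Gip, the incretin of the upper gut, had 4909, 1753 and 5728 CPM in EEC on ND and 12280, 3979 and 10240 on HFD, and 1924, 189 and 57.9 in non-EEC on ND against 187, 215 and 162 on HFD. The difference was 3.04 ± 1.35 (adjusted p = 0.283) with all libraries and 0.54 (adjusted p = 0.768) without that one.

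Pyy, the satiety peptide of L cells, had 136, 54.7 and 169 CPM in EEC on ND and 659, 604 and 1116 on HFD with no overlap, and 66.3, 6.58 and 2.35 in non-EEC on ND against 11.6, 17 and 19.2 on HFD. Its effect was 2.73 ± 0.90 in EEC (adjusted p = 0.311), and its difference was 3.38 ± 1.24 (adjusted p = 0.202), or 0.92 without ND non-EEC replicate 1. Cartpt, a neuropeptide precursor, had the smallest adjusted p of the hormones (0.0963, difference 5.75 ± 1.47), with 27.1, 5.72 and 9.48 CPM in EEC on ND and 41.2, 41.2 and 111 on HFD. Without ND non-EEC replicate 1 the Cartpt difference was 4.16 (adjusted p = 0.0788 by edgeR). It kept its sign in all 23 alternatives and was called in 3 of them. Cck went from a difference of 3.91 ± 2.0 (adjusted p = 0.35) to -0.82 without that library, and Gcg from 1.18 ± 1.43 (adjusted p = 0.732) to -1.25. Neurog3 had a difference of -2.08 ± 1.07 (adjusted p = 0.353) and chromogranin A, Chga, of 2.11 ± 1.15 (adjusted p = 0.383), or -0.08 without it.

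T cell genes had values well below 0 under HFD in both populations. All 23 tested T cell markers were called lower in non-EEC (9.15% of all genes), with a median of -4.89, and the median in EEC was -4.24 with 0 called. Their median difference was 0.53 with 0 called (0 by DESeq2 and 0 by limma-voom). Of these markers 2 had a positive difference at an unadjusted p below 0.05, against 9.08% of all genes. The T cell marker sum fell with the 77 genes in non-EEC, and was lower in EEC too, with no overlap between the diets. With a T cell marker score in the model 15 of the 77 genes with a positive difference were called and 0 of the 8 with a negative one. The score comes from the same libraries and does not overlap between the diets in either population. This fit therefore cannot separate T cell content from diet, for the genes called in it or for the others. The 15 genes called in it included Esyt1, Mvb12b, Trerf1, Sh3kbp1, Pea15a, Adgrl1, Anxa6, Glp1r, B3galt5, Man1c1, Iqsec1 and Eif4e3. The ribosomal protein genes had a difference above 0 in 32 of 32 (median 0.95, 8 at an unadjusted p below 0.05, 0 called, 0 by DESeq2 and 3 by limma-voom). Over all genes the median was 0.11, and 9.08% had a positive difference at an unadjusted p below 0.05. DESeq2 called 596 of all genes positive and limma-voom 963.

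For 27 of the 85 genes an exon overlaps an exon of another gene, for 19 of them on the opposite strand, and the strand setting of the counting is not given in the sources used here. Of the genes with values above these are Esyt1, Pea15a, Adgrl1, Iqsec1, Eif4e3, C1qtnf6, Tspyl4, Flvcr1 and Akr1c19, and their counts may include reads of the overlapping gene. Of the 85 genes 80 are annotated as protein coding, and Trerf1 is not among these 80.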

How the data were processed

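RNA of the 12 sorted samples was made into cDNA with the Ovation RNA-Seq System V2, per the labels' protocols. The authors deposited raw read counts per Ensembl gene (39086 genes). Per the submitters' processing notes, the tools were HTSeq 0.5.4p3, Bowtie2 2.1.0, TopHat2 2.0.10 and CASAVA 1.8.2 on mm10. The counting mode, strand setting and annotation release were not given in the sources used here. Of the identifiers, 37607 (96.2%) were matched to a symbol and position in GENCODE vM21.

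Genes were kept by filterByExpr (17087), libraries scaled by TMM factors, and 4 group means fitted with edgeR 4.0.16 in R 4.3.3 (quasi-likelihood test, 8 residual degrees of freedom, common biological coefficient of variation 0.536). The Benjamini-Hochberg adjustment ran over all 17087 genes, and genes under an adjusted p of 0.05 were called. CPM use the scaled library sizes and are given per replicate in the order 1, 2, 3 or as mean ± SD, and log2 fold changes carry the standard error of the fit. The fit was tested on simulated data. Alternatives were other scaling factors and filters, robust estimation, DESeq2 1.42.0, limma-voom 3.58.1, replicate blocks, other bounds for the classes and leaving out each library in turn. Models with a T cell or an enterocyte marker score as a covariate were added after the data were seen. Figures were drawn with matplotlib 3.10.9.

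The comparison, the classes and the 38 gene lists were chosen with earlier results of these data known. Named genes were called genes with a symbol that is not provisional and at least 10 CPM in the highest group mean: up to 15 in each direction by size, up to 8 of each class and up to 4 of each list by adjusted p. Each tested hormone, Neurog3 and Chga were taken whether or not called. Values are not printed for every gene taken by the rules given here. Of the hormones they are printed for Gip, Pyy, Cartpt, Cck and Gcg only. For lists with no called member, the 2 members with the smallest p, and also AI467606, 4930503L19Rik, Prkacb, Hsf4, Tmem59l, Prr33, Col27a1, Gm15936, Ntng2 and the 3 genes just outside the threshold, were taken after their values were seen.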

Additional observations from a re-analysis of the deposited data

Results flagged for a closer look

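In the edgeR fit over all 12 libraries, the test of the difference itself called 77 genes with a positive and 8 genes with a negative difference. Of these 85 genes 0 were called in all 12 runs that left out 1 library. Each named gene among the 85 is given here with its difference of log2 diet effects. The positive differences were 8.16 for Ptgs2, 7.55 for Egr3, 5.76 for Crmp1, 5.66 for C1qtnf6, 5.44 for B3galt5, 5.37 for Glp1r and 5.35 for Pip4k2a. They were 4.99 for Tgfb1, 4.97 for Anxa6, 4.82 for Ccdc92, 4.80 for Tspyl4, 4.75 for Trerf1, 4.53 for Mvb12b and 3.25 for Esyt1. Further positive differences were 4.68 for Sh3kbp1, 4.30 for Pea15a, 4.62 for Adgrl1, 4.47 for Man1c1, 3.96 for Iqsec1, 3.41 for Eif4e3 and 3.18 for Itm2c. The remaining ones were 4.51 for Hpgds, 2.78 for Anxa5 and 4.04 for Vim. The negative differences were -4.11 for Akr1c19, -3.35 for Flvcr1, -3.08 for Sult1d1, -3.04 for Akr1c13, -2.54 for Dlg3 and -2.27 for Pgap1. For 3 genes with 3 or fewer counts in 1 group the adjusted p of the difference (edgeR's quasi-likelihood test, Benjamini-Hochberg) is given instead, which was 0.0473 for Mcpt1, 0.0275 for Aqp9 and 0.042 for Stum.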

How the results depend on the processing

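Genes with a positive and a negative difference of diet effects numbered 596 and 465 with DESeq2, 963 and 1220 with limma-voom, and 255 and 107 with no filter on low counts, against 77 and 8. Negative ones numbered 14 with RLE factors and 17 with a filter of 5 CPM in 3 libraries. DESeq2, limma-voom and the run with no filter called all 85 genes again, and the share of positive calls went from 90.6% to 56.2% with DESeq2, 44.1% with limma-voom and 70.4% with no filter. Without ND non-EEC replicate 1 it was 36.5%, so that in this run and with limma-voom most called differences were negative. With a T cell marker score as a covariate there were 15 and 0 calls, and with an enterocyte marker score 0 and 0. Both scores come from the same libraries and differ between the diets in non-EEC, so neither fit separates cell content from diet. For HFD against ND in EEC alone there were 270 calls with no filter, 465 with DESeq2 and 8 with limma-voom, in non-EEC 4053 with DESeq2 and 6929 with limma-voom against 2549, and for EEC against non-EEC 5556 with limma-voom against 3685. A bound of 1.5 gave 15 genes with opposite signs, 0 in the same direction and 1 in no class, and a bound of 0.5 gave 24 lower in non-EEC, 50 opposite and 6 in the same direction. Leaving out 1 library at a time gave 0 to 464 positive and 0 to 807 negative differences, 0 to 217 calls in EEC, 1002 to 4203 in non-EEC and 2787 to 3964 for EEC against non-EEC, and of the 85 genes 43 to 54 were lower in non-EEC, 23 to 36 opposite, 5 to 7 higher in non-EEC, 0 to 2 in the same direction and 0 to 0 in each other class.

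Same-numbered EEC and non-EEC libraries deviated together with correlations above 0.1 in 5 of 6 pairs (0.16, 0.25 and -0.0099 in ND, 0.29, 0.26 and 0.28 in HFD), and in 5 of 6 the library correlated best with its own number. The labels do not tie numbers to mice, so the pairing is not established. With a replicate block by number 53 and 8 genes were called, 50 of the 85 among them, and with a block nested in diet 64 and 20, 49 of the 85 among them. Of the named genes, Stum, C1qtnf6, Pip4k2a, Akr1c19 and Dlg3 were not called under either block (Akr1c19 at an adjusted p of 0.0575 by number and 0.0528 nested), Tspyl4, Flvcr1 and Hpgds were not called under the block by number, and Aqp9, Egr3, Sult1d1, Pgap1 and Itm2c not under the nested one. Their adjusted p under the blocks that lost the call ran from 0.0511 to 0.0707. A nested block absorbs the diet contrast within a population and gives no value for it.

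Precision is limited by 3 libraries per group and, for genes near 0 CPM, by counting error.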

Other observations

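Several genes of other lists lay just outside the threshold of the difference. The small heat shock protein Hspb1 had 5.17, 12.7 and 15.1 CPM in EEC on ND and 57.7, 73.9 and 215 on HFD, with no overlap. In non-EEC it had 1.87, 1.84 and 3.9 CPM on ND and 0.542, 1.52 and 2.62 on HFD, which overlap. Its difference was 4.14 ± 0.92 (log2, SE; adjusted p = 0.0699), and the median difference of the 18 tested heat shock genes was 0.59, with 0 called by edgeR (1 by DESeq2 and 1 by limma-voom, positive in each). Over all genes the median was 0.11, and DESeq2 and limma-voom called 596 and 963 positive. Scd2, a fatty acid desaturase, had 120, 169 and 82.9 CPM in non-EEC on ND and 37.8, 29.3 and 22 on HFD, with overlapping EEC libraries (difference 2.41 ± 0.56, adjusted p = 0.076). Hspb1 and Scd2 were each called in 6 of 23 alternatives. Unc13a, which primes vesicles for exocytosis, had a difference of 2.03 ± 0.43 (adjusted p = 0.0613), with means of 57.9 ± 8.38 and 81.3 ± 6.78 CPM in EEC on ND and HFD and 9.33 ± 2.34 and 3.22 ± 0.652 CPM in non-EEC (SD, n = 3).

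Monoamine oxidase A, Maoa, had 456, 171 and 171 CPM in non-EEC on ND and 1169, 1561 and 2003 on HFD, with overlapping EEC libraries, and its difference was -2.56 ± 0.80 (adjusted p = 0.148). Of 12 tested genes of the mitochondrial genome 12 had a difference below 0 (median -2.08), 7 at an unadjusted p below 0.05 and 0 called by edgeR. Of 16 Paneth cell and antimicrobial genes 16 had a difference below 0 (median -2.65), 6 at an unadjusted p below 0.05 and 0 called by edgeR. DESeq2 called 4 of the mitochondrial and 2 of the Paneth cell genes as negative, and limma-voom 5 and 2. Over all genes they called 465 and 1220 negative, and by edgeR 7.4% had a negative difference at an unadjusted p below 0.05.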
